A study of Mus musculus with 9 samples.

Results

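The genes described here are 10 genes of serine synthesis and one-carbon metabolism: *Phgdh*, *Psat1*, *Psph*, *Shmt1*, *Shmt2*, *Mthfd1*, *Mthfd1l*, *Mthfd2*, *Atf4* and *Asns*. They were taken by gene symbol from a table of 24060 genes, and all 10 were found and passed the filter on low levels that 11330 genes passed (a maximum above 1 TPM, the length-corrected share of transcripts). The libraries came from R7-I, R7-II and R7-III transnuclear mice on a Rag2-proficient BALB/c background, lines derived by nuclear transfer from single CD8 T cells that recognized the *Toxoplasma gondii* antigen ROP7. Each line thus stands for the T cell receptor of 1 cell, and no second line per receptor was included. Splenocytes of all 3 lines were cultured overnight in IL-2 (10 ng/ml) with ROP7 peptide (10 µM), and CD3+ CD8+ cells that bound the H-2Ld-Rop7 tetramer were sorted for polyA RNA sequencing, with 3 libraries per clone and 9 in all. Per the series design, the affinity for ROP7 peptide ordered the clones as R7-I, R7-III and R7-II from high to low, and self-reactivity as R7-III, R7-I and R7-II. The labels call the libraries biological replicates without saying whether each came from its own mouse, so the p-values measure the spread between these libraries.

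Serine is made from the glycolytic intermediate 3-phosphoglycerate in a chain of steps catalysed by PHGDH, PSAT1 and PSPH. Serine hydroxymethyltransferases then split serine into glycine and a one-carbon unit bound to folate, SHMT2 in mitochondria and SHMT1 in the cytosol. MTHFD2 and MTHFD1L carry the unit to formate within mitochondria, and MTHFD1 returns formate to the folate pool of the cytosol, where it feeds purine and thymidylate synthesis. The transcription factor ATF4, whose translation rises under amino acid shortage and other stress, drives many of these genes and *Asns*, which encodes the enzyme that makes asparagine. Activated T cells are known for a strong induction of this network while they grow and prepare to divide.

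All 10 genes had their lowest mean level in R7-II, the clone of lowest affinity. With limma on log2(TPM + 1), 8 of 10 were lower in R7-II than in R7-I at an adjusted p of 0.01, against 15.5% of all genes tested, and 0 were higher, against 40.6% of all genes. Between R7-II and R7-III, 10 of 10 were lower, against 18.0% of all genes, and 0 were higher, against 35.6%. R7-III and R7-I were closer: 1 gene, *Asns*, was higher in R7-III, against 6.96% of all genes, and 0 were lower, against 1.45%. At an unadjusted limma p under 0.05, 10 of 10 were lower and 0 higher in both comparisons of R7-II, and 3 were higher and 2 lower in R7-III relative to R7-I. The shares of all genes at that unadjusted p were not counted, so these counts have no background. The same holds for the unadjusted counts of gene lists below. At an adjusted p of 0.05, 10 of 10 were lower in both comparisons of R7-II, against 19.5% (R7-I) and 22.6% (R7-III) of all genes. None of the 10 was higher there, against 48.8% and 44.2%. The 2 comparisons of R7-II share the R7-II libraries. In bulk samples fewer cells that express a gene and less RNA of it per cell cannot be told apart.

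**Figure D1:**
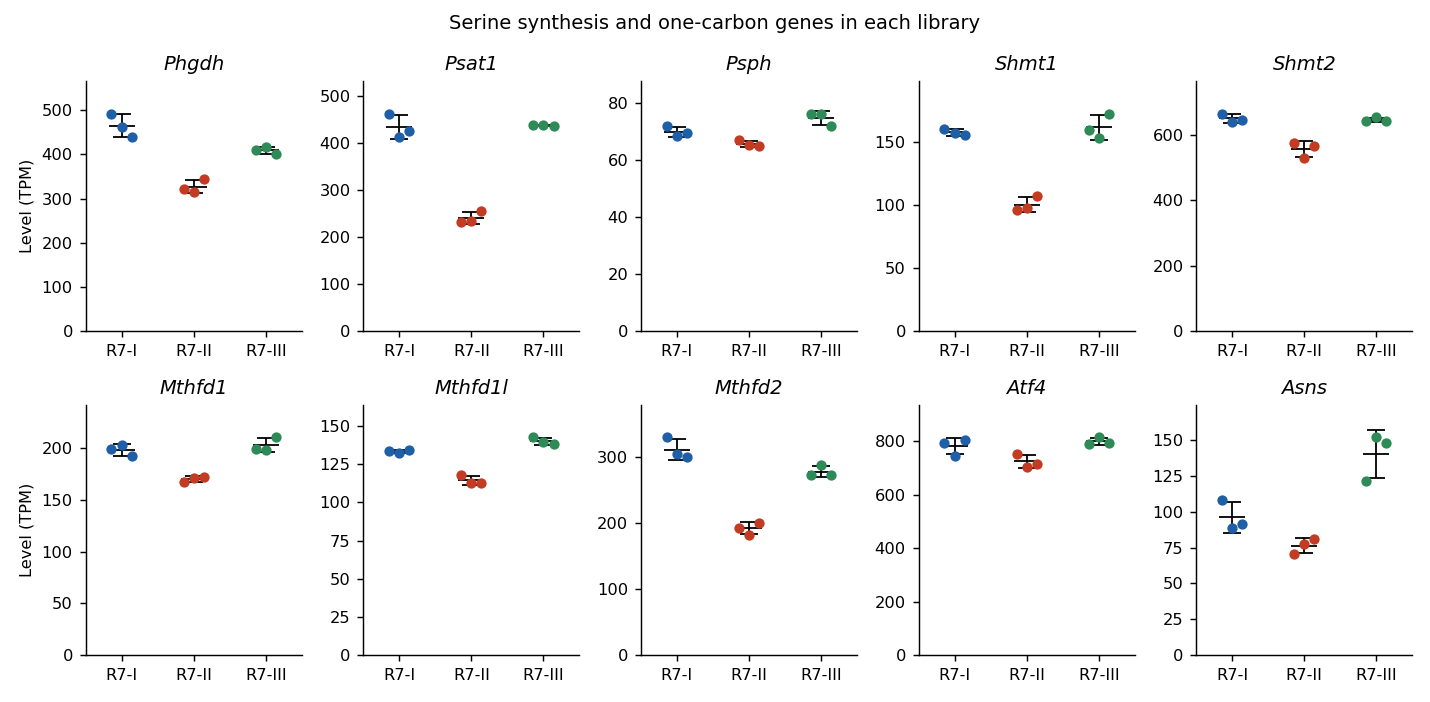
Level of each of the 10 genes in TPM (linear axis from 0) in the 9 libraries. Points are libraries, horizontal bars are the clone mean and error bars the SD (n = 3); the R7-II points lie below the other 6 for every gene except *Atf4*, with *Psat1* at 241 TPM in R7-II against 434 and 437, and *Asns* highest in R7-III at 141 TPM.

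The promoter of *Asns*, the gene that parted R7-III from R7-I, is printed with those of *Psat1* and *Shmt1*, among the genes with the lowest log2 fold changes of R7-II against R7-I. The windows are from RefSeq on GRCm38.p6, the build of the study's mm10 annotation, and run 5′ to 3′ on the minus strand from 250 bases before to 50 after the start. Capitals mark the C/EBP-ATF composite motif TGATGNAA, a known binding sequence of ATF4.
*Asns*, chr6:7693160-7693459: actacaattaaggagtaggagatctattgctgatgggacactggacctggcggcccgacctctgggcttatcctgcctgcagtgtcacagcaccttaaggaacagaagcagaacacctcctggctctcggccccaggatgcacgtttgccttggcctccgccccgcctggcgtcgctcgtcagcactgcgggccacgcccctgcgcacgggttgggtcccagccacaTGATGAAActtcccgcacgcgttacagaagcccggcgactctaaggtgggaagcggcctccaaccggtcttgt
*Psat1*, chr19:15925010-15925309: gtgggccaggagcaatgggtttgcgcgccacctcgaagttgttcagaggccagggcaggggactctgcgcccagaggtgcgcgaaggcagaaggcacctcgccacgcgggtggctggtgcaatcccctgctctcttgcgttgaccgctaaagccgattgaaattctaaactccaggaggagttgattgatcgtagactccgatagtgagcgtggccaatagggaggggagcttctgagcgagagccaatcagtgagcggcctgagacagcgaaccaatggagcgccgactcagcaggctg
*Shmt1*, chr11:60811216-60811515: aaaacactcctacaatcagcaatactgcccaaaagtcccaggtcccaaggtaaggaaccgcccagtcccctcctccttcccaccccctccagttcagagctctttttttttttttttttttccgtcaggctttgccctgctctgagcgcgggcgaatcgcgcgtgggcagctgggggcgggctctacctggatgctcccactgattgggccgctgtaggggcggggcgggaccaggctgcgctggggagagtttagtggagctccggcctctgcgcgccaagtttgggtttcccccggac
The motif was searched on both strands in the windows of all 10 genes, and *Asns* was the 1 gene with a match, at position -23 from the start on the coding strand. *Psat1* had 2 windows, and the second, chr19:15924573-15924872, is not printed and held 0 matches. The window of *Mthfd2*, whose log2 fold change against R7-I lay between those of *Psat1* and *Shmt1*, is not printed either. For *Mthfd1* and *Mthfd1l* the last bases of the window were not found in the gene's transcript sequence, so their starts are less certain. Of 32851 RefSeq mouse promoters of this length, 3.97% held a match, as did 2.75% of the 8504 tested genes that had a window. The E-box CACGTG, a motif of MYC and related factors, was in 0 of the 10 genes, in 7.15% of promoters and in 12.4% of the tested genes with a window. These letters describe the windows and do not show a factor at work there.

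Among the enzymes of serine synthesis, *Psat1* and *Phgdh* were far below the other clones in R7-II, and *Psph* differed little. *Psat1* (chr19:15905123-15925059), the aminotransferase of the pathway, was measured at 462, 413 and 426 TPM in R7-I, 232, 235 and 255 in R7-II, and 438, 438 and 436 in R7-III. Every R7-II library was below all others, and R7-I and R7-III overlapped. The mean in R7-II was 0.555 times that in R7-I (log2 fold change -0.85, SE 0.0451, limma adjusted p = 1.38e-07) and 0.550 times that in R7-III (-0.86, SE 0.0451, adjusted p = 1.49e-07). For R7-III relative to R7-I, *Psat1* had a log2 fold change of 0.01, with a 95% confidence interval from -0.09 to 0.11.

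*Phgdh* (chr3:98313171-98339969), which encodes the enzyme of the first step, was at 492, 463 and 439.6 TPM in R7-I, 322, 316 and 344 in R7-II, and 411, 416 and 401 in R7-III. The 3 clones did not overlap for *Phgdh*, and their order was that of the peptide affinities. R7-II was lower than R7-I by limma (log2 fold change -0.51, SE 0.0439, adjusted p = 3.54e-06) and lower than R7-III (-0.32, SE 0.0439, adjusted p = 8.75e-05). The step from R7-I to R7-III did not pass the threshold (-0.18, SE 0.0439, adjusted p = 0.0164), although without R7-I replicate 3 it did (adjusted p = 0.00956).

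*Psph* (chr5:129765558-129787443), which encodes the phosphatase of the last step, was at 71.9, 68.5 and 69.7 TPM in R7-I, 67.0, 65.4 and 65.0 in R7-II, and 76.4, 76.2 and 72.2 in R7-III. The R7-II libraries again lay below the rest, and R7-III above R7-I, by small margins. *Psph* was lower in R7-II than in R7-III (log2 fold change -0.18, SE 0.0361, limma adjusted p = 0.00108). Against R7-I the log2 fold change of -0.09 did not pass (adjusted p = 0.0488), but it passed with median-of-ratios scaling (-0.27, adjusted p = 0.000143). *Psph* overlaps *Cct6a* in the annotation, and the reads did not keep strand, so its level is uncertain.

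The transcript of the cytosolic serine hydroxymethyltransferase differed more between R7-II and the other clones than that of the mitochondrial one. *Shmt1* (chr11:60788897-60811265) was at 160.3, 157 and 155 TPM in R7-I, 96.0, 97.6 and 107 in R7-II, and 159, 153 and 172 in R7-III. *Shmt2* (chr10:127517123-127522444) was the second most abundant of the 10, at 665, 639 and 647 TPM in R7-I, 575, 529.7 and 565 in R7-II, and 642, 654 and 641 in R7-III. For both genes the R7-II libraries lay below all others, and R7-I and R7-III overlapped. *Shmt1* differed between R7-II and R7-I by -0.65 in log2 fold change (SE 0.0504, limma adjusted p = 1.66e-06) and from R7-III by -0.68 (SE 0.0504, adjusted p = 1.13e-06). The same differences of *Shmt2* were -0.23 (SE 0.0321, limma adjusted p = 0.000114) and -0.22 (SE 0.0321, adjusted p = 0.000169), and the second did not pass under quantile normalization (adjusted p = 0.0229). For R7-III relative to R7-I the 95% confidence intervals ran from -0.08 to 0.15 for *Shmt1* and from -0.08 to 0.06 for *Shmt2*.

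Of the folate interconversion enzymes, *Mthfd2* stood out. *Mthfd2* (chr6:83305704-83326011), the mitochondrial dehydrogenase and cyclohydrolase, was at 329.7, 304 and 300.1 TPM in R7-I, 193, 182 and 200.3 in R7-II, and 273, 287 and 273 in R7-III. As for *Phgdh*, the 3 clones did not overlap and followed the order of the affinities. The mean in R7-II was 0.616 times that in R7-I (log2 fold change -0.70, SE 0.0448, limma adjusted p = 4.88e-07) and 0.691 times that in R7-III (-0.53, SE 0.0448, adjusted p = 2.88e-06), while R7-III against R7-I gave -0.16 and did not pass (SE 0.0448, adjusted p = 0.0288).

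*Mthfd1* (chr12:76254406-76319820), the cytosolic enzyme with 3 activities, was at 199.6, 204 and 192 TPM in R7-I, 167, 172 and 172 in R7-II, and 199.8, 198 and 211 in R7-III. *Mthfd1l* (chr10:3972892-4167081), the mitochondrial formate-producing synthetase, was at 134, 132 and 134 TPM in R7-I, 118, 113 and 113 in R7-II, and 143, 139.7 and 138 in R7-III. Both were lower in R7-II than in any other library, by less than *Mthfd2* was. Their log2 fold changes from R7-I were -0.22 each (SE 0.0332, limma adjusted p = 0.000174 for *Mthfd1*, and SE 0.0295, adjusted p = 7.87e-05 for *Mthfd1l*). From R7-III they were -0.25 (adjusted p = 7.33e-05) and -0.29 (adjusted p = 1.15e-05). *Mthfd1l* was above R7-I in every R7-III library, by a log2 fold change of 0.07 that did not pass (adjusted p = 0.126).

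*Atf4* (chr15:80255184-80257545) was the most abundant of the 10 and the least changed between R7-II and R7-III. It was at 794, 747 and 805 TPM in R7-I, 754, 706 and 717 in R7-II, and 789, 815 and 796 in R7-III, so that R7-II replicate 1 lay above R7-I replicate 2. Against R7-III the log2 fold change of -0.14 passed (SE 0.0345, limma adjusted p = 0.00410), but not without R7-II replicate 2 or 3 (adjusted p = 0.0152 in both) or R7-III replicate 2 or 3 (0.0196 and 0.0104). Nor did it pass under quantile normalization (0.0903) or with no mean-variance trend (0.0204). Against R7-I the log2 fold change of -0.11 did not pass (adjusted p = 0.0164), and it passed without R7-I replicate 2 (0.00455) or R7-II replicate 1 (0.00615). ATF4 is controlled largely through translation, which was not measured here.

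*Asns* (chr6:7675165-7693209) differed most of the 10 genes when R7-III was set against R7-I. It was at 109, 88.7 and 91.4 TPM in R7-I, 70.6, 77.5 and 80.7 in R7-II, and 122, 152 and 148 in R7-III. The 3 clones did not overlap for *Asns*, with R7-II lowest and R7-III highest, the order of the self-reactivities. R7-III was higher than R7-I (log2 fold change 0.54, SE 0.0943, limma adjusted p = 0.00321) and R7-II lower than R7-III (-0.87, SE 0.0943, adjusted p = 1.79e-05). The call of R7-III above R7-I was lost without R7-I replicate 2 or 3 or R7-III replicate 2 or 3, with adjusted p between 0.0151 and 0.0168. It was also lost with no filter (0.0120) and with no mean-variance trend (0.0128). R7-II against R7-I gave -0.33 and was just inside the threshold (SE 0.0943, adjusted p = 0.00991). That call was lost in 7 of the 9 fits that left out 1 library, namely each of the R7-II libraries, R7-I replicate 1 or 3 and R7-III replicate 2 or 3 (adjusted p up to 0.0427). It was also lost with the replicate number as a block (0.0180), with no filter (0.0251), with no mean-variance trend (0.0249) and with a pseudocount of 5 (0.0109).

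**Figure D2:**
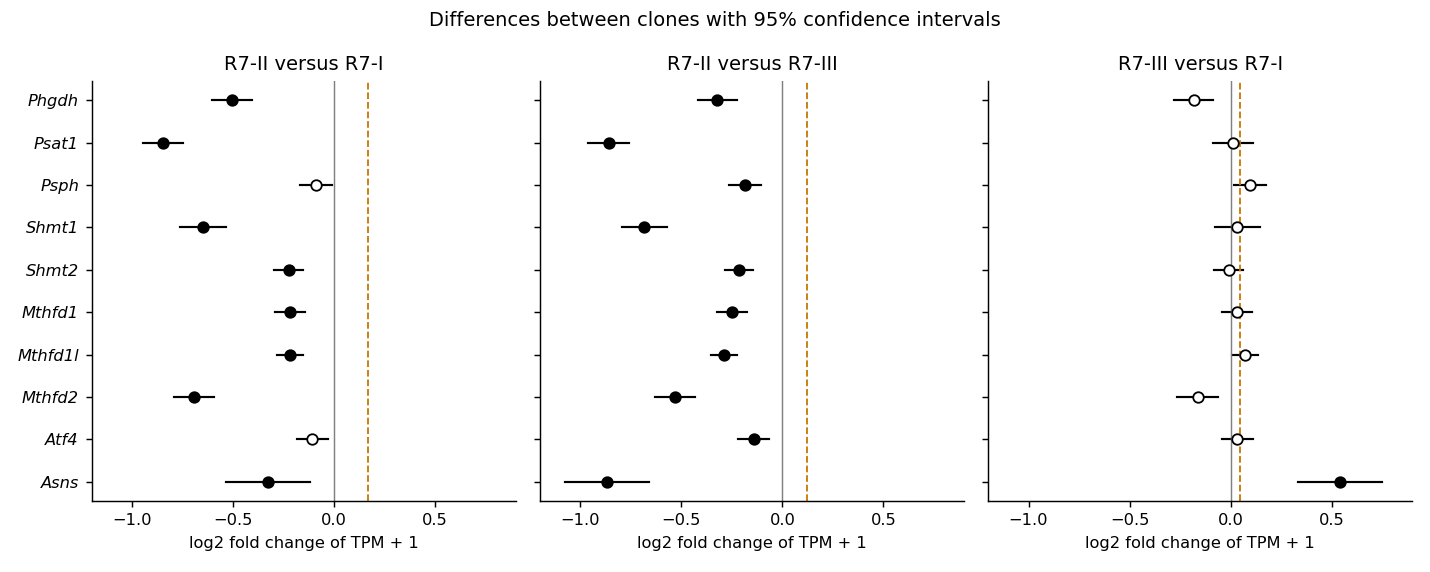
Difference of each gene between clones as the log2 fold change of TPM + 1 (x axis), with 95% confidence intervals from limma. Filled points passed an adjusted p of 0.01, open points did not, the grey line is 0 and the dashed line is the median of all 11330 genes (0.17, 0.12 and 0.04 from left to right); all 10 genes lie left of both lines in the 2 comparisons of R7-II.

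The median log2 fold change of the 10 genes was -0.28 between R7-II and R7-I, where the median of all 11330 genes was 0.17. It was -0.31 between R7-II and R7-III, where all genes had 0.12, and 0.03 between R7-III and R7-I, where all genes had 0.04. TPM fixes the total of each library, and after median-of-ratios scaling, which brings the median of all genes near 0, the 10 genes had medians of -0.46, -0.44 and -0.02. With that scaling 10 of 10 were lower in both comparisons of R7-II, as were 29.4% and 28.2% of all genes. The share of higher genes among those called went from 72.4% to 46.2% when R7-II was compared with R7-I, from 66.4% to 47.0% when it was compared with R7-III, and from 82.8% to 56.6% when R7-III was compared with R7-I.

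Counting libraries that did not overlap, the R7-II libraries lay below the other 6 for 9 of the 10 genes, against 17.4% of all genes. R7-III lay above R7-I for 3, *Psph*, *Mthfd1l* and *Asns*, against 29.5% of all genes, and below it for 2, *Phgdh* and *Mthfd2*, against 12.4%. The clone means of *Phgdh*, *Shmt2* and *Mthfd2* descended from R7-I to R7-III to R7-II, an order held by 11.3% of all genes. The other 7 descended from R7-III to R7-I to R7-II, an order held by 17.3% of all genes. Of these 10 orders, the step between R7-I and R7-III passed the test for *Asns* alone, and that call was lost under some alternatives. The place of the upper 2 clones is thus not settled for the other 9, and for *Asns* the call depends on the fit.

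Summed over the 10 genes, the level was 3298 ± 106 TPM in R7-I, 2569 ± 66.2 in R7-II and 3290 ± 38.6 in R7-III (SD, n = 3), or 0.330%, 0.257% and 0.329% of all transcripts. The lowest sum among the R7-I and R7-III libraries, 3216 TPM, was above the highest in R7-II, 2618 TPM. The 3 serine synthesis genes summed to 969 ± 50.3, 634 ± 26.5 and 922 ± 11.7 TPM in R7-I, R7-II and R7-III. *Shmt2*, *Mthfd2* and *Mthfd1l*, the mitochondrial arm, summed to 1095 ± 29.0, 863 ± 33.3 and 1064 ± 15.6 TPM. *Shmt1* and *Mthfd1*, the cytosolic arm, summed to 356 ± 7.29, 271 ± 7.82 and 364 ± 16.7 TPM. The transcripts of the 3 mitochondrial genes thus summed to more than those of the 2 cytosolic genes in every clone. *Shmt2* alone had means of 650, 557 and 646 TPM, while *Mthfd1l* was below *Mthfd1* in every clone.

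Ratios of 2 genes within a library are not changed by a scaling factor per library (quantile normalization, which is no such factor, does change them) and show that not all of the genes moved in step. *Shmt2* over *Shmt1*, in TPM, was 4.15, 4.08 and 4.17 in R7-I, 5.996, 5.43 and 5.28 in R7-II, and 4.03, 4.29 and 3.72 in R7-III, so that every R7-II library was above all others. *Psat1* over *Phgdh* was 0.939, 0.892 and 0.969 in R7-I, 0.722, 0.744 and 0.741 in R7-II, and 1.07, 1.05 and 1.09 in R7-III, with no overlap between clones. Thus *Psat1* was below *Phgdh* in R7-I and R7-II and above it in R7-III.

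*Mthfd2* over *Mthfd1* was 1.57 ± 0.0798 in R7-I, 1.13 ± 0.0571 in R7-II and 1.37 ± 0.0777 in R7-III (SD, n = 3), and the clones did not overlap. *Mthfd1l* over *Mthfd1*, by contrast, was 0.672 ± 0.0245, 0.673 ± 0.0274 and 0.691 ± 0.0317, and all clones overlapped. *Asns* over *Atf4* was 0.123 ± 0.0121, 0.105 ± 0.0102 and 0.175 ± 0.0186, with R7-II below and R7-III above the rest. Over the 9 libraries the SD of log2(TPM + 1) was 0.0755 for *Atf4* and 0.400 for *Asns*. These ratios are given as descriptions without a test.

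**Figure D3:**
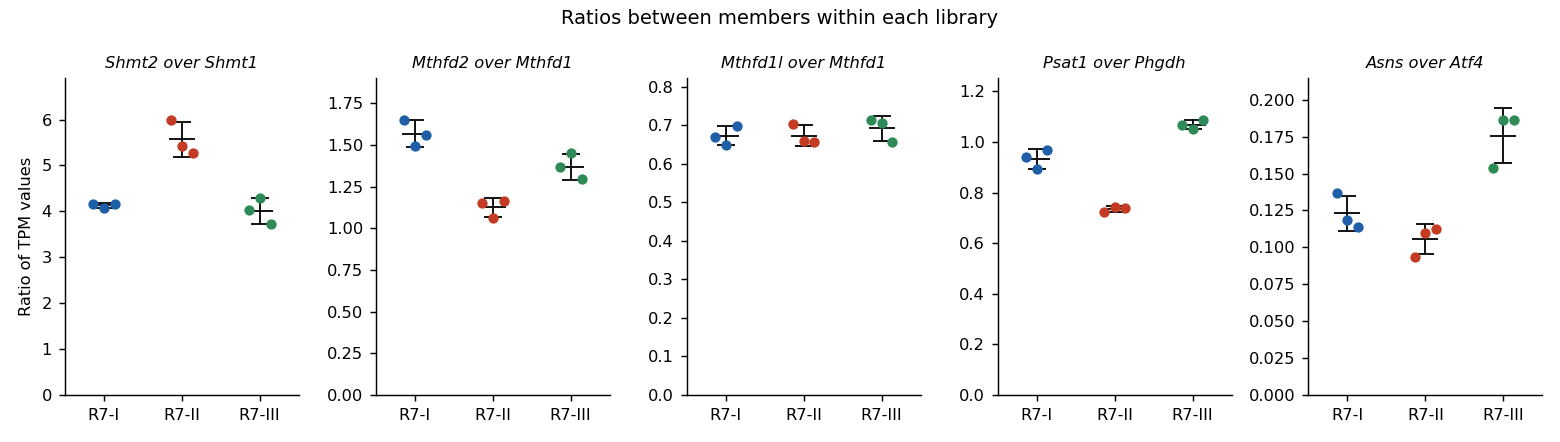
Ratios of TPM between pairs of the 10 genes (y axes from 0) in each of the 9 libraries, with clone means and SD (n = 3). *Shmt2* over *Shmt1* is highest in R7-II, at a mean of 5.57 against 4.13 and 4.01, *Psat1* over *Phgdh* and *Mthfd2* over *Mthfd1* are lowest there, and *Mthfd1l* over *Mthfd1* overlaps in all clones.

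The genes nearest in profile were found among the other 11329 genes tested by the root mean square difference of centred log2(TPM + 1) values over the 9 libraries. For *Phgdh* they were *Hspa8* (0.0333), *Eif2b3* (0.0358) and *Snrpd1* (0.0501). For *Psat1* they included *Bcl2a1d* (0.0833) and *Hk2* (0.0838), which encodes the hexokinase of the first glycolytic step. For *Shmt1* they were *Hnrnpll* (0.0448), *Bcat1* (0.0489) and *Zmynd19* (0.0510), for *Mthfd2* *Clic4* (0.0459), *Cdr2* (0.0497) and *Rab8b* (0.0593), and for *Asns* *Nsl1* (0.0987), *Angptl2* (0.101) and *Parpbp* (0.112). None of these nearest genes is among the 10, whose closest pair was *Psph* and *Atf4* (0.0422). This measure keeps the size of the differences, so genes that vary little come out close. The SD over the 9 libraries was 0.0856 for *Psph* and 0.0755 for *Atf4*, the lowest among the 10. *Angptl2* and *Parpbp* were at means of 1.53 and 1.59 TPM, near the filter.

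The surrounding pathway was described with 7 lists of 73 genes, of which 61 passed the filter. Between R7-II and R7-I, 16 were higher and 23 lower, against 40.6% and 15.5% of all genes, and between R7-II and R7-III, 15 were higher and 27 lower, against 35.6% and 18.0%. The same shares are the background of each list. In R7-III relative to R7-I, 7 were higher and 1 was lower, against 6.96% and 1.45% of all genes. The counts were uneven between lists.

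Of 11 folate cycle and transport genes, 7 were lower and 1 higher in R7-II relative to R7-I, and 6 were lower and 0 higher than in R7-III by limma (7 and 1 at an unadjusted p under 0.05). *Fpgs*, which retains folate in cells, *Qdpr* and the folate carrier gene *Slc19a1* were lower in R7-II than in R7-I by -0.38, -0.52 and -0.15 (limma adjusted p = 1.11e-05, 6.26e-05 and 0.00281, the last up to 0.0116 over the alternatives). *Mthfd2l*, a relative of *Mthfd2*, was at 2.5 TPM in R7-I, 0.857 in R7-II and 1.19 in R7-III, and it was the 1 gene of the lists lower in R7-III than in R7-I (-0.67, adjusted p = 0.00247). *Aldh1l1*, *Aldh1l2*, *Folr1*, *Folr2* and *Ftcd* did not pass the filter.

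The methionine cycle and transsulfuration list had 5 of 8 genes lower and 2 higher in R7-II in both comparisons. *Cth*, whose enzyme makes cysteine, was at 23.7 ± 2.36 TPM in R7-I, 9.95 ± 0.455 in R7-II and 46.4 ± 3.52 in R7-III. *Cth* passed in all 3 comparisons (-1.17, -2.11 and 0.94, limma adjusted p = 6.07e-07, 4.34e-08 and 4.42e-05). *Mat2a* and *Ahcy*, which make S-adenosylmethionine and clear its product, were lower in R7-II than in R7-I by -0.35 and -0.37 (adjusted p = 2.35e-05 and 1.25e-05), as were *Amd1* (-0.39, 2.30e-05) and *Mtap* (-0.61, 1.87e-06) of polyamine synthesis and methylthioadenosine salvage. *Mat2b*, which encodes the regulatory partner of MAT2A, was higher by 0.61 (adjusted p = 2.21e-06). *Cbs* was among the 4 genes of this list that did not pass the filter.

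Among the enzymes that consume or release one-carbon units, *Gart* and *Atic* of purine synthesis were lower in R7-II than in R7-I by -0.31 each (limma adjusted p = 3.16e-06 and 1.50e-05). Thymidylate synthase, *Tyms*, was at 16.5 ± 0.473, 19.3 ± 1.52 and 23.7 ± 1.27 TPM in R7-I, R7-II and R7-III, and it was higher in R7-III than in R7-I (0.50, adjusted p = 0.000606). All 3 of these genes were lower in R7-II than in R7-III. In glycine cleavage, *Gcsh* was lower in R7-II than in R7-I (-0.37, adjusted p = 2.84e-05), *Dld* gave -0.01 (0.745), *Gldc* did not pass the filter, and *Amt*, at 2.09 TPM or less in every clone mean, was higher (1.12, 0.000176).

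Of the serine uptake and use genes, 6 of 12 were higher and 2 lower in R7-II than in R7-I, near the shares of all genes (40.6% and 15.5%). *Sfxn1*, the mitochondrial serine transporter gene, was lower (109 ± 2.62 TPM in R7-I, 80.4 ± 6.93 in R7-II and 127 ± 3.25 in R7-III, with -0.44 and limma adjusted p = 4.79e-05 for R7-II against R7-I). Its relative *Sfxn3* was higher (11.7 ± 1.49, 54.3 ± 4.51 and 15.8 ± 0.899 TPM, with 2.13 and 3.93e-08). *Sptlc1*, whose product joins serine to palmitoyl-CoA in sphingolipid synthesis, and *Serinc3* were higher by 1.07 and 0.79 (adjusted p = 4.68e-06 and 2.87e-07). The transporter gene *Slc1a5* gave -0.10 against R7-I (adjusted p = 0.0174, but 2.23e-05 with median-of-ratios scaling) and was lower than in R7-III (-0.23, 0.000160). With median-of-ratios scaling 3 of these 12 genes were higher and 4 lower against R7-I, again near the shares of all genes (25.2% and 29.4%).

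Of 12 kinases and regulators of the integrated stress response, 5 were higher and 2 lower in R7-II relative to R7-I, 5 were higher and 3 lower than in R7-III, and 0 passed by limma in the comparison of R7-III with R7-I, where 1 was higher and 3 were lower at an unadjusted p under 0.05. The counts of R7-II against R7-I were near the 40.6% and 15.5% of all genes, and with median-of-ratios scaling they became 3 higher and 4 lower. For R7-III against R7-I that scaling gave 0 higher and 3 lower, against 4.86% and 3.72% of all genes. *Ddit3*, the gene of the stress factor CHOP, and *Eif2ak3*, the gene of the kinase PERK, exceeded R7-I in R7-II by 0.81 each (adjusted p = 8.63e-05 and 1.98e-05), and *Atf3* was lower (-1.15, 3.65e-06), as was *Eif2s1* (-0.37, 1.11e-06). The smaller differences of *Eif2ak1* (0.17) and *Ppp1r15b* (0.20) from R7-I became -0.01 and 0.01 with median-of-ratios scaling and did not pass (limma adjusted p = 0.777 and 0.775).

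Of 12 other known ATF4 targets, 4 were lower and 1 higher in R7-II relative to R7-I, and 5 were lower and 1 higher than in R7-III. *Stc2* (-1.71, limma adjusted p = 1.62e-05), *Chac1* (-0.42, 0.000204), *Eif4ebp1* (-0.40, 7.32e-05) and *Xpot* (-0.18, 0.00261, up to 0.0137 over the alternatives) were lower than in R7-I. *Ddit4*, an inhibitor of mTORC1, was higher (29.9 ± 7.78 TPM in R7-I, 94.0 ± 16.2 in R7-II and 37.9 ± 4.81 in R7-III, with 1.63 and 1.31e-05), and *Aldh18a1* of proline synthesis gave 0.14 (0.0353). The motif TGATGNAA was in the windows of 7 of the 51 pathway genes with a promoter window, against 2.75% of tested genes with a window. These were *Atf3*, *Chac1*, *Nupr1*, *Pycr1*, *Slc1a4*, *Slc7a11* and *Trib3*, named here for that match. Known ATF4 targets made up 1 of the lists, so the 51 genes were not picked without regard to ATF4. CACGTG was in 6 of the 51, against 12.4% of tested genes with a window. *Trib3* was at 16.2, 16.2 and 16.3 TPM in R7-I, R7-II and R7-III. *Atf3*, *Chac1*, *Slc1a4* and *Slc7a11* had their lowest mean in R7-II, while *Pycr1* was lowest in R7-III and *Nupr1* in R7-I.

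**Figure D4:**
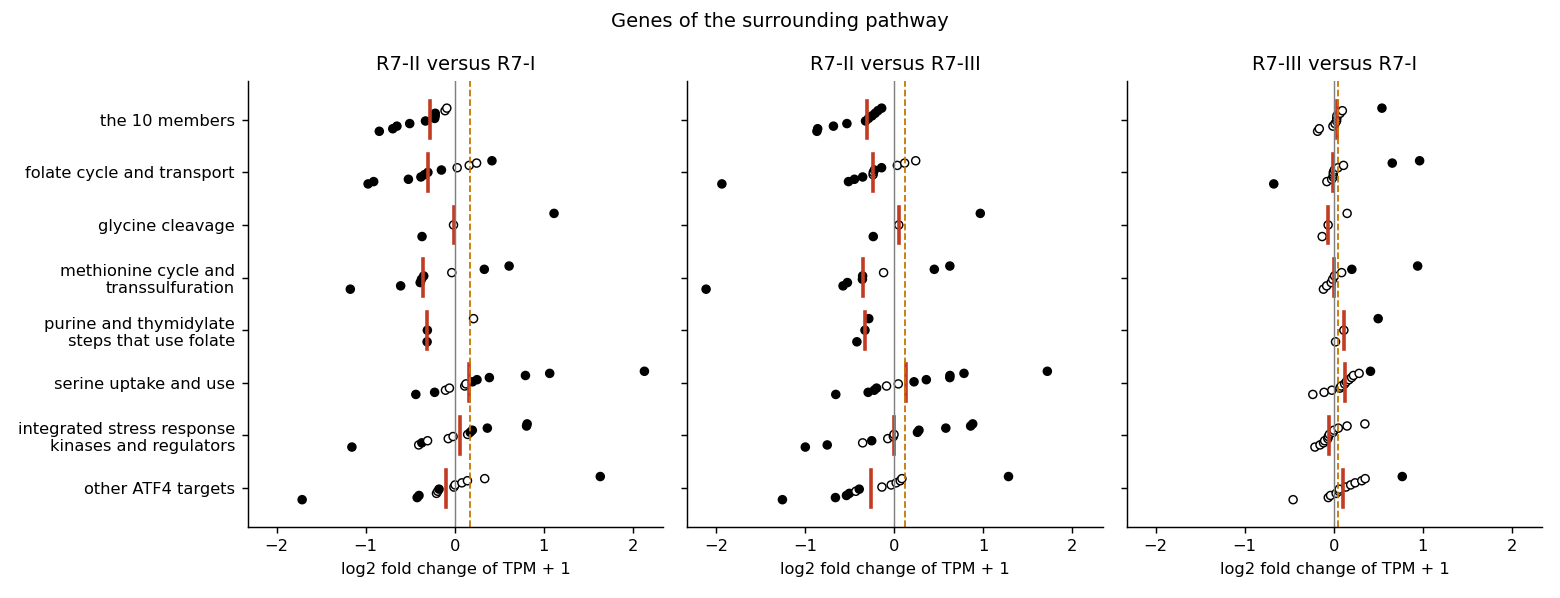
Log2 fold change of TPM + 1 (x axis) of the 10 genes and of the 61 tested genes in 7 pathway lists, for the 3 comparisons. Each point is a gene, filled where it passed an adjusted p of 0.01, red bars are list medians, the grey line is 0 and the dashed line is the median of all genes; the 10 genes all lie below 0 in both comparisons of R7-II, while the serine uptake and stress response lists spread to both sides.

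Other properties of the libraries moved with the clones. The CD8 T cell list (*Cd3d*, *Cd3e*, *Cd3g*, *Cd8a*, *Cd8b1*) summed to 1369 to 1411 TPM in R7-I, 2064 to 2113 in R7-II and 1580 to 1597 in R7-III, and 5 of 5 were called higher in R7-II against each other clone (4 of 5 against R7-I and 3 of 5 against R7-III with median-of-ratios scaling). B cell genes were higher in R7-II for 6 of 6, with sums of 7.66 to 14.3, 31.9 to 66.8 and 4.73 to 6.86 TPM in R7-I, R7-II and R7-III. MHC class II genes, 5 of 5 higher, summed to 27.9 to 44.0, 101 to 168 and 19.6 to 22.8 TPM. Myeloid genes, 5 of 6 higher, summed to 0.63 to 2.08, 19.0 to 74.1 and 2.25 to 3.91 TPM, with *Cd14* at 0 in every R7-I library. NK cell genes were at most 0.17 TPM in sum, CD4 T cell genes at most 7.71, and erythroid genes 44.0 to 129, 1.90 to 21.3 and 13.3 to 39.3. The 10 genes summed to 2595, 2494 and 2618 TPM in R7-II replicates 1, 2 and 3 (SD 66.2). Replicate 2 had the lowest B cell and myeloid sums of the R7-II libraries, and a link to the 10 genes was not tested.

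Genes of cycling cells, 8 in all, were lower in R7-II in both comparisons for 8 of 8, with sums of 1736 to 1827 TPM in R7-I, 1171 to 1295 in R7-II and 2185 to 2281 in R7-III. In R7-III 7 of these 8 were higher than in R7-I (4 of 8 with median-of-ratios scaling), while the sum of the 10 serine and one-carbon genes was 3290 against 3298 TPM. The part of the other cell types, of cycling and of the CD8 gene level in the results for the 10 genes was not tested.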

How the data were processed

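The authors estimated gene levels with RSEM 1.2.11 on RefSeq genes of mm10 and deposited TPM values, which are corrected for gene length and sum to the same total per library. For the aligner behind RSEM, the name was not given in the sources. Because TPM does not hold depth, the exact read number behind each library is unknown and counting error could not be computed; the study's methods give only an approximate figure common to all samples. The authors tested counts with DESeq2 1.8.1, which were not used here. Between 13738 and 14434 genes were above 0 in a library, and correlations of log2(TPM + 1) within clones were 0.992 to 0.997.

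Genes with a maximum TPM above 1 were tested on log2(TPM + 1) with lmFit and eBayes (with a mean-variance trend) of limma 3.58.1, run in R 4.3.3, with all 9 libraries in 1 fit, 6 residual degrees of freedom, Benjamini-Hochberg adjustment over 11330 genes and the study's threshold of 0.01. Fold changes on this scale understate those of low genes. Every pathway and marker gene was read by symbol, and gene positions are RefSeq on GRCm38. The script was tested on simulated data. Pathway genes were named by a rule that took the 3 most abundant tested genes of each list and the 3 with the largest change between R7-II and R7-I, and genes near in profile by the 3 smallest differences; 2 genes that the rule names are not reported here. The members and lists were chosen with earlier results of these data known. Alternatives changed the pseudocount, the filter, the scaling, the moderation or the threshold, kept only the 2 clones of a comparison, added the replicate number to the model as a block, or left out 1 library. Unstimulated samples were not analysed here.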

Additional observations from a re-analysis of the deposited data

How the results depend on the processing

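No gene of the 10 changed sign in either comparison of R7-II under any alternative, and the number lower was 7 to 10 of 10 relative to R7-I and 8 to 10 relative to R7-III. The share of all genes lower also varied with the setting. Apart from the fits that left out 1 library, it ran from 10.2% with no filter to 29.4% with median-of-ratios scaling relative to R7-I. Relative to R7-III it ran from 12.3% to 28.2% in the same 2 settings. Between R7-III and R7-I the number higher was 0 with no filter and with no trend and 0 to 1 with 1 library left out, and the number lower was 2 at a threshold of 0.05 and 0 to 1 with 1 library left out. With median-of-ratios scaling the log2 fold changes of *Psat1*, *Shmt1*, *Mthfd1* and *Atf4* in that comparison became -0.0405, -0.0194, -0.0226 and -0.0208. With 1 library left out, that of *Psat1* ran from -0.0212 to 0.0602, of *Shmt1* from -0.0134 to 0.0733 and of *Shmt2* from -0.0224 to 0.0059. None of these was called. Median-of-ratios scaling divides every level of a library by 1 factor, and it took the median of all genes in this comparison from 0.04 to -0.003. The cause of the sign changes with 1 library left out was not tested.

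Of the 61 pathway genes, the 16 that were higher in R7-II relative to R7-I became 10 with median-of-ratios scaling, where the share of all genes went from 40.6% to 25.2%. Between R7-III and R7-I the number higher became 3 with quantile normalization and 13 at a threshold of 0.05 (3.77% and 14.8% of all genes). It was 3 to 8 with 1 library left out (3 without R7-III replicate 1 or 2, and 4 without R7-I replicate 1 or 2 or R7-III replicate 3). The number lower became 0 with TPM of at least 1 in every library, 5 with median-of-ratios scaling and 3 with quantile normalization, with only the 2 clones compared and at a threshold of 0.05. In the order named, 1.60%, 3.72%, 2.25%, 2.21% and 4.14% of all genes were lower in these settings. With 1 library left out the number lower was 0 to 3 (0 without R7-I replicate 1 or R7-III replicate 1 or 2, and 3 without R7-II replicate 2).

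Libraries with the same replicate number did not deviate together (correlations from -0.045 to 0.089). With the replicate number as a block, 7 genes were lower in R7-II than in R7-I, against 14.6% of all genes, since *Asns* no longer passed (log2 fold change -0.33, limma adjusted p = 0.0180). In that fit 10 were lower than in R7-III, against 17.2% of all genes, and 1 was higher in R7-III than in R7-I, against 5.36%.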
